A study of Homo sapiens with 6 samples.

Results

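The aryl hydrocarbon receptor (AHR), its repressor AHRR and 5 further genes tied to the receptor were followed in HuCCT1 cells, an established human cholangiocarcinoma line, after knockdown of C1QBP. The genes are AHR, AHRR, the cytochrome P450 genes CYP1A1 and CYP1B1, TIPARP, ALDH3A1 and LRAT, and they were taken by gene name from a deposited table of 58735 genes, in which all 7 occurred once. The choice already used the comparison described here, since CYP1B1 and AHRR were known to be higher after knockdown. The values of these 7 genes are therefore given as a description, with no p-value. Calls and intervals for them come from the fit across all genes; they are no independent test, and nothing is supported with them. The 2 groups were HuCCT1 cells in which an siRNA, a short RNA that directs cleavage of a matching transcript, targeted C1QBP (siC1QBP), and HuCCT1 cells that received the control siRNA (siNC), with 3 libraries each. The labels name no AHR ligand, dose or time after transfection. The question of the series, from its title, is how C1QBP acts with PAICS, FAK and c-Myc on growth of this cancer; AHR is not part of it.

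AHR is a transcription factor that waits in the cytosol with HSP90 and its co-chaperones and moves to the nucleus when it binds planar aromatic ligands such as dioxins, polycyclic hydrocarbons or tryptophan metabolites. There it pairs with ARNT and binds DNA at xenobiotic response elements. Its classical targets include CYP1A1 and CYP1B1, which oxidise aromatic compounds, and its own negative regulators AHRR and TIPARP, so transcripts of these genes are widely used as a readout of receptor activity.

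Total counts were 17122252 to 20416243 per library. Genes with at least 1 count numbered 25001 to 25506 in siC1QBP and 23395 to 23841 in siNC libraries. What this difference means for genes of few counts was not tested. C1QBP, the siRNA target, stood at 57.6 to 60.0 CPM (counts scaled to the TMM-adjusted library total) in siC1QBP. In siNC libraries it stood at 175 to 185 CPM. Replicate 1 of siC1QBP stood apart from the others of its group. Its gene counts differed from theirs with chi-square statistics of 6.66 and 6.77 for each degree of freedom, where those of replicates 2 and 3 gave 2.09. In siNC, replicate 1 stood apart too but less so, at 3.67 and 3.40, where replicates 2 and 3 gave 2.13. The biliary keratins KRT7 and KRT19 were abundant in both groups, at 3151 ± 65.7 and 1658 ± 37.0 CPM in siC1QBP against 3766 ± 74.5 and 1888 ± 113 CPM in siNC (SD, n = 3). Both fell (KRT7 log2 fold change -0.26, edgeR adjusted p = 0.000214; KRT19 -0.19, edgeR adjusted p = 0.00862), KRT19 not without siNC replicate 2 (edgeR adjusted p = 0.0802) or 3 (0.0763), and their part in the results was not tested. EPCAM and SOX9 were present in all 6 libraries and not called. Of the markers of other cell types, the leukocyte gene PTPRC, the endothelial gene CDH5, the hepatocyte genes ALB and APOA1 and the muscle gene DES had at most 6 counts in any library, and the endothelial gene PECAM1 had 28 to 47. The labels do not say that replicates came from separate cultures, so their spread may be technical.

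The DNA element through which AHR and ARNT act has the core GCGTG, and matches to it near the start sites are shown as the letters the pathway is known to read. The genes were chosen as the receptor and its targets, so such matches are not independent of the choice. RefSeq promoters (GRCh38.p14, 250 bases before and 50 after a start) were at hand for 5 of the 7 genes, 8 promoters in all; CYP1B1 and ALDH3A1 had none. The core was searched on both strands; it is also part of the core bound by the hypoxia factors, which share the partner ARNT. Of the 8 promoters 5 held it, against 36.5% of 35116 promoters in the RefSeq table and 47.7% of the 15470 promoters of tested genes. The longer form TNGCGTG occurred in 1 of the 8, against 5.51% of all promoters and 6.83% of the promoters of tested genes. In the sequences below, the core is in capitals and each site is read 5′ to 3′ on the strand that holds GCGTG.
AHR, chr7:17298679-17298701, plus strand, core starting 38 bases into the transcript: tgttccgagaGCGTGccccggac
AHRR first promoter, chr5:321674-321698, plus strand, core starting 30 bases before the start and in the longer form: cgggcggctcGCGTGccggggtggg
AHRR second promoter, chr5:322558-322582, plus strand, core starting 42 bases before the start: agaagggtggGCGTGtgcgcgcgtt
CYP1A1, chr15:74725571-74725595, minus strand, core starting 57 bases before the start: agggaaggagGCGTGgccacacgta
TIPARP first promoter, chr3:156674372-156674396, minus strand, 208 bases before the start: ccgcgaggggGCGTGtcctttctcg
TIPARP first promoter, chr3:156674438-156674462, minus strand, 142 bases before the start: ccctgcgcgcGCGTGcgcgttcgtt

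The second AHRR promoter held another core 247 bases before its start, at the edge of the window. The LRAT promoter and the other 2 TIPARP promoters held none within these 300 bases. A match describes the letters only. The window leaves out more distant sequence, where response elements of CYP1A1 are known to lie.

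Among the 7 genes, the receptor was lower and its repressor and CYP1B1 were higher in siC1QBP cells. Of the 6 genes that passed the low-count filter, 2 were called higher (AHRR and CYP1B1), 1 was called lower (AHR) and 3 were not called (CYP1A1, TIPARP and ALDH3A1), at an edgeR adjusted p under 0.05 over 15530 tested genes. Over all tested genes 14.3% were called, 6.47% higher and 7.84% lower; since the genes were chosen on this comparison, nothing is read from the difference in shares. LRAT did not pass the filter. The CPM of the 2 groups did not overlap for 5 of the 7 genes, 4 of them higher and 1 lower, against 32.6% of all tested genes (16.0% higher, 16.6% lower).

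**Figure D1:**
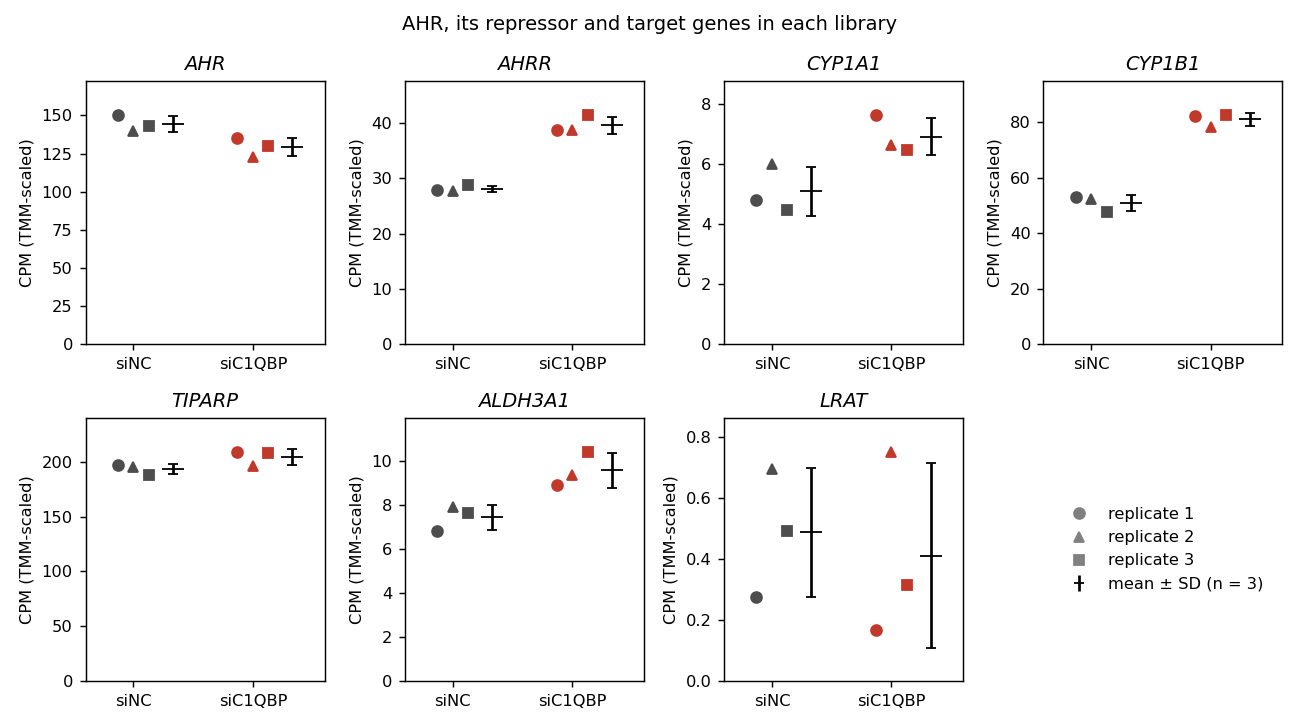
CPM on TMM-scaled library sizes of each of the 7 genes in the 3 siNC (grey) and 3 siC1QBP (red) libraries, 1 panel a gene with its own axis from 0; symbols mark the replicate number and the black bar is the mean ± SD. CYP1B1 and AHRR sit higher and AHR sits lower in all 3 siC1QBP libraries, while the groups overlap for TIPARP and LRAT.

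AHR (ENSG00000106546; hg38 chromosome 7, 16916359 to 17346152, plus strand) encodes the receptor itself. Its level was 135, 123 and 130 CPM in siC1QBP replicates 1, 2 and 3, and 150, 140 and 143 CPM in siNC replicates 1, 2 and 3. The lowest siNC library lay above the highest siC1QBP library, though by less than the range within either group. The means were 129 ± 6.00 and 145 ± 5.27 CPM (SD, n = 3), so that siC1QBP cells held 89.4% of the control level. The log2 fold change was -0.16 (SE 0.05). The AHR call was lost when any 1 of siC1QBP replicates 2 and 3 or siNC replicates 1, 2 and 3 was left out, and when libraries were scaled by their totals alone. The log2 fold change ranged from -0.19 to -0.13 over the 13 alternatives. A protein-coding gene on the same strand, AC019117.2, shares 2373 of AHR's 8081 exon bases (29.4%) and had 0 counts in all 6 libraries. How reads of the shared bases were assigned is not given in the sources used here, so the level of AHR, and its ratio to other genes, may miss some of them.

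AHRR (ENSG00000063438; chromosome 5, 304176 to 438291, plus strand) encodes the repressor, a relative of AHR that competes for ARNT and is itself induced by the active receptor. It stood at 38.7, 38.8 and 41.4 CPM in the siC1QBP libraries. In the siNC libraries it stood at 27.9, 27.7 and 28.8 CPM. All siC1QBP libraries were above all siNC libraries, by several times the spread within a group. The means were 39.6 ± 1.53 and 28.1 ± 0.551 CPM (SD, n = 3), a 1.41-fold difference with a log2 fold change of 0.49 (SE 0.07; 0.46 to 0.52 over the 13 alternatives).

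The AHRR locus shares sequence with other genes. The 3′ part of PDCD6, a calcium-binding protein gene on the same strand, overlaps it, and 244 of AHRR's 7678 annotated exon bases (3.18%) are also exon of PDCD6. PDCD6 had 114 ± 11.2 CPM in siC1QBP and 109 ± 2.15 CPM in siNC (log2 fold change 0.07, SE 0.06; edgeR adjusted p = 0.527). A processed pseudogene, AC010442.2, lies within an intron of AHRR on the same strand. It had 10, 15 and 23 counts in siC1QBP and 8, 5 and 4 in siNC libraries, and was called higher (log2 fold change 1.53, SE 0.47; edgeR adjusted p = 0.0381).

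CYP1B1 (ENSG00000138061; chromosome 2, 38066973 to 38109902, minus strand) encodes an extrahepatic P450 that oxidises oestrogens and polycyclic hydrocarbons, and had the largest log2 fold change of the 6 tested AHR genes. It stood at 82.4, 78.4 and 82.5 CPM in the siC1QBP libraries and at 53.0, 52.5 and 47.7 CPM in the siNC libraries. The lowest siC1QBP library was far above the highest siNC library. The means were 81.1 ± 2.37 and 51.1 ± 2.91 CPM (SD, n = 3), a 1.59-fold difference with a log2 fold change of 0.67 (SE 0.06). Under the 13 alternatives the value ranged from 0.62 to 0.69. The antisense gene CYP1B1-AS1 shares 678 of CYP1B1's 6014 exon bases (11.3%); it had 7.56 ± 0.391 CPM in siC1QBP and 6.88 ± 1.22 in siNC (log2 fold change 0.14, SE 0.14; edgeR adjusted p = 0.579), well under the level of CYP1B1. The counting program's strand setting is not given in the sources used here, so reads of the shared bases could have gone to either gene.

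CYP1A1 (ENSG00000140465; chromosome 15, 74719542 to 74725610, minus strand), the P450 most strongly induced by AHR ligands in most tissues, was scarce. It had 137, 115 and 123 counts in siC1QBP, or 7.61, 6.63 and 6.46 CPM. In siNC it had 87, 121 and 82 counts, or 4.78, 6.00 and 4.47 CPM. The groups did not overlap, but siNC replicate 2 came close to the lowest siC1QBP library. The log2 fold change was 0.44 (SE 0.16; 95% interval 0.13 to 0.74), and CYP1A1 was not called. The siNC libraries varied by 16.0% (coefficient of variation) where counting error alone gives 10.2%, and the siC1QBP libraries by 9.03% where counting gives 8.94%, so that depth set much of the error.

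The size for CYP1A1 thus overlapped that for CYP1B1 within its interval, and the missing call does not show that the P450 genes behaved differently. The remaining gene of the family, CYP1A2, a liver enzyme, had 0 to 3 counts per library. At that depth a level under 0.149 to 0.173 CPM, the limit that 3 counts set in these libraries, cannot be told from none; this limit covers counting error only.

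TIPARP (ENSG00000163659; chromosome 3, 156673235 to 156706770, plus strand) encodes a mono-ADP-ribosyltransferase that is induced by AHR and marks the receptor for breakdown. It was the most abundant of the 7 genes, at 209, 196 and 208 CPM in siC1QBP and 197, 195 and 188 CPM in siNC. The groups overlapped, since siC1QBP replicate 2 lay under siNC replicate 1. The log2 fold change was 0.08 (SE 0.04; 95% interval -0.01 to 0.17). With 3401 to 3954 counts per library, depth was not the limit for TIPARP: the upper bound lies under the lower bounds of AHRR (0.36) and CYP1B1 (0.55), though the difference between genes was not tested.

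ALDH3A1 (ENSG00000108602; chromosome 17, 19737984 to 19748943, minus strand) encodes an aldehyde dehydrogenase that is inducible through AHR in several epithelia. It stood at 8.89, 9.35 and 10.4 CPM in siC1QBP and 6.81, 7.89 and 7.62 CPM in siNC. All siC1QBP libraries were above the siNC libraries. The log2 fold change was 0.36 (SE 0.12; 95% interval 0.12 to 0.60) and was not called. It was called when siC1QBP replicate 1 was left out, under scaling by library totals alone and with the replicate number as a block, where its size was 0.36 to 0.41.

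LRAT (ENSG00000121207; chromosome 4, 154626945 to 154753118, plus strand) encodes lecithin retinol acyltransferase, which esterifies retinol for storage and is known to respond to AHR ligands in liver. It was barely detected. The counts were 3, 13 and 6 in siC1QBP and 5, 14 and 9 in siNC libraries, or 0.167 to 0.750 and 0.274 to 0.695 CPM. Summed over libraries these are 22 counts (95% exact Poisson interval 13.8 to 33.3) and 28 counts (18.6 to 40.5), intervals that cover counting error only. The groups overlapped fully, and a change of LRAT was not detectable at this depth.

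**Figure D2:**
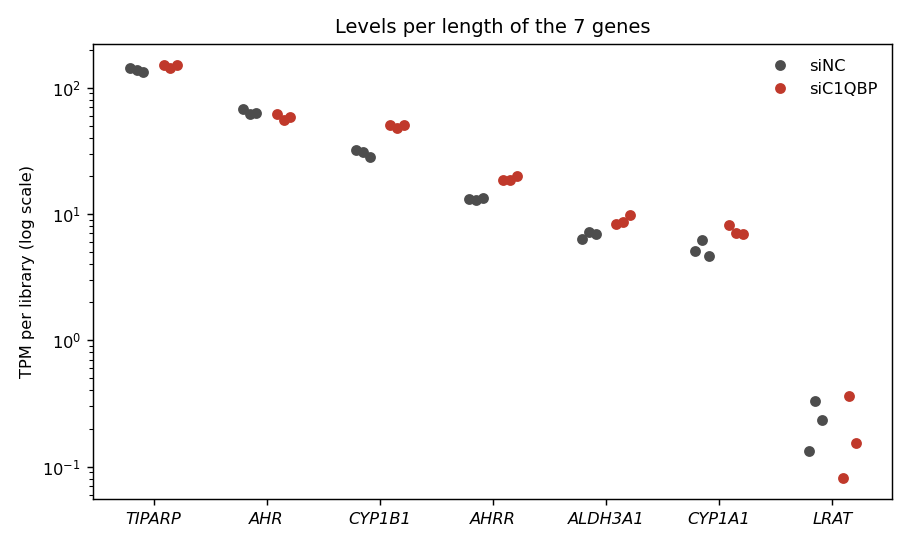
Level per length (TPM, log axis) of the 7 genes in each siNC (grey) and siC1QBP (red) library, ordered by level. TIPARP is highest in all 6 libraries and LRAT, under 0.4 TPM, is lowest.

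Levels between genes were compared per length, as TPM on the file's gene lengths of 3435 to 8081 bases. The order was the same in all 6 libraries: TIPARP, AHR, CYP1B1, AHRR, ALDH3A1, CYP1A1 and LRAT. In siNC libraries TIPARP had 138 ± 4.29, AHR 64.4 ± 3.05 and CYP1B1 30.5 ± 1.90 TPM (SD, n = 3). AHRR followed with 13.2 ± 0.269, ALDH3A1 with 6.83 ± 0.446, CYP1A1 with 5.32 ± 0.819 and LRAT with 0.231 ± 0.0978 TPM. Of these neighbours ALDH3A1 and CYP1A1 were closest: the lowest ALDH3A1 value was 6.33 and the highest CYP1A1 value 6.23 TPM in siNC, and 8.32 and 8.12 TPM in siC1QBP. In siC1QBP libraries CYP1B1 moved up to 49.4 ± 1.64 TPM, near AHR at 58.6 ± 2.87 TPM.

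**Figure D3:**
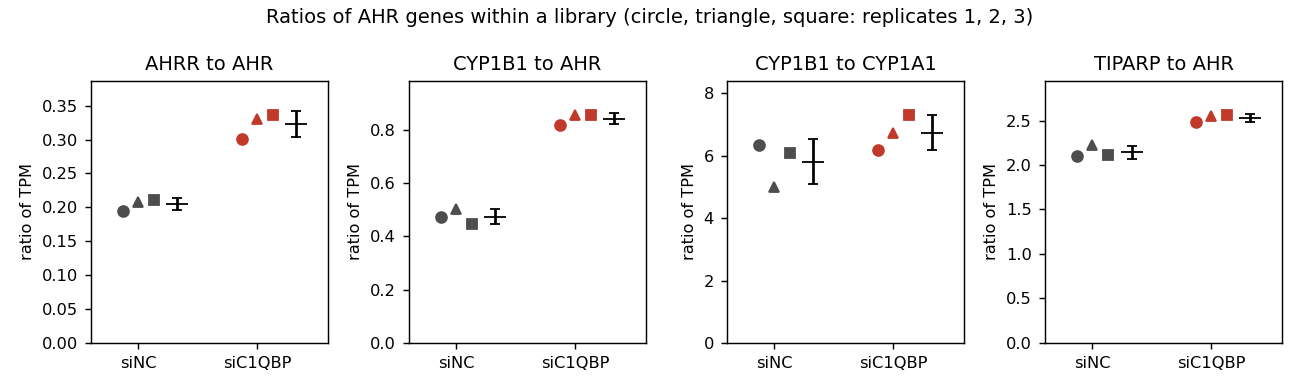
Ratio of the TPM of 2 genes within the same library, 1 panel a ratio with its own axis from 0, for siNC (grey) and siC1QBP (red) libraries; the black bar is the mean ± SD (n = 3). AHRR, CYP1B1 and TIPARP relative to AHR are higher in all 3 siC1QBP libraries, while CYP1B1 relative to CYP1A1 overlaps.

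Ratios within a library do not depend on its scaling. AHRR to AHR was 0.301, 0.331 and 0.336 in siC1QBP and 0.195, 0.208 and 0.211 in siNC libraries. CYP1B1 to AHR was 0.819, 0.855 and 0.856 against 0.473, 0.503 and 0.448. For both ratios every siC1QBP library exceeded every siNC library. This follows from the levels, since AHRR and CYP1B1 were higher and AHR lower in every siC1QBP library than in any siNC library. It adds nothing to those values. TIPARP to AHR was 2.48, 2.55 and 2.56 against 2.10, 2.23 and 2.11, so this ratio too was separate, although the level of TIPARP overlapped between groups. CYP1B1 to CYP1A1 was 6.18, 6.74 and 7.30 against 6.34, 4.99 and 6.10, and these ranges overlapped.

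Fold changes were also set against gene length, the total exon bases of a gene, and the trend itself was not tested. A quadratic trend of log2 fold change with log2 length over all tested genes stood at 0.02 at the length of CYP1A1 (3435 bases), 0.04 at that of CYP1B1 and 0.06 at that of AHR (8081 bases). In the range of their lengths, 3435 to 8081 bases, 7111 tested genes had a median log2 fold change of -0.00033, against 0.0026 over all tested genes, and 6.37% were called higher. With the trend removed, an alternative chosen after seeing the data, the log2 fold change was 0.63 for CYP1B1, 0.44 for AHRR, 0.42 for CYP1A1, 0.34 for ALDH3A1, 0.05 for TIPARP and -0.22 for AHR. No sign changed.

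The spread between replicates set the precision gene by gene. For ALDH3A1 it was about what counting error gives, at 8.36% between siC1QBP and 7.59% between siNC libraries (coefficient of variation), where counting gives 7.59% and 8.42%. For LRAT it was larger than counting error, 73.8% against 36.9% in siC1QBP and 43.2% against 32.7% in siNC libraries. For the abundant genes it exceeded counting error, with 4.64% against 2.07% for AHR and 3.46% against 1.64% for TIPARP in siC1QBP libraries. AHRR varied by 3.85% and CYP1B1 by 2.92% in siC1QBP, near the 3.73% and 2.61% of counting alone, while in siNC libraries AHRR varied by 1.96% where counting gives 4.34% and CYP1B1 by 5.70% where counting gives 3.22%.

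Fold changes were recomputed without siC1QBP replicate 1, the library that stood farthest from its group. The log2 fold change was 0.65 for CYP1B1, 0.51 for AHRR and 0.41 for ALDH3A1. For CYP1A1 it was 0.36, for TIPARP 0.06 and for AHR -0.19. The order of the genes by fold change was then the same except that ALDH3A1 and CYP1A1 changed places.

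**Figure D4:**
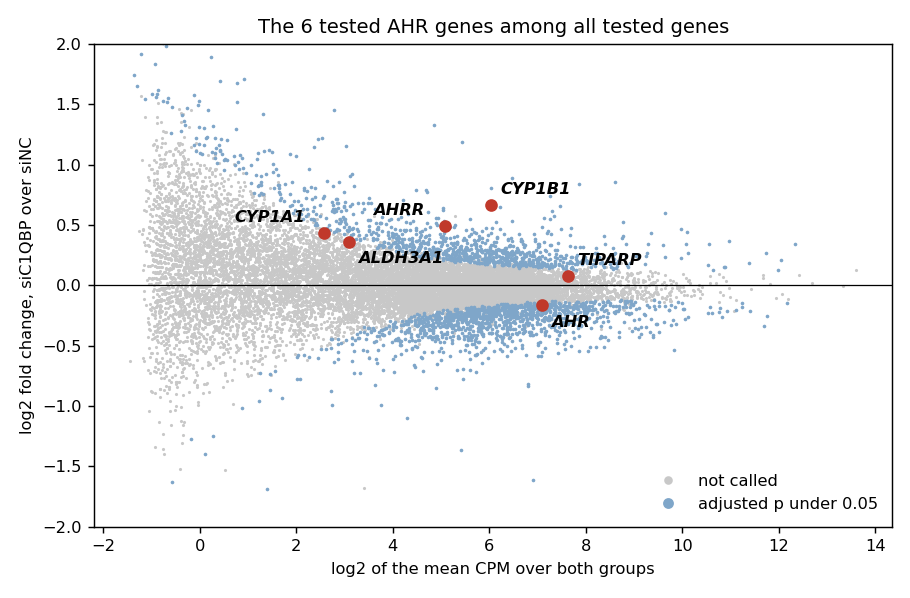
Log2 fold change (siC1QBP over siNC) against log2 mean CPM for all 15530 tested genes, blue where the adjusted p is under 0.05, with the 6 tested AHR genes in red; 8 genes lie beyond the vertical axis. CYP1B1 (0.67) and AHRR (0.49) stand above the bulk of genes of like abundance, and AHR (-0.16) and TIPARP (0.08) lie close to it.

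Around these genes, 9 lists of the wider pathway were counted, 103 genes of which 82 were tested. In all, 9 were called higher and 5 lower, which is 17.1% of those tested against 14.3% of all tested genes, and their median log2 fold change was 0.03 against 0.0026. The edgeR adjusted p of each named gene is over all 15530 tested genes.

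The cytosolic complex that holds AHR was not called. Of 4 of its genes, the chaperones HSP90AA1 and HSP90AB1, the co-chaperone PTGES3 and the kinase SRC, 0 passed in either direction with edgeR, with a median log2 fold change of -0.03. At an unadjusted p under 0.05 there were 0 (edgeR), and DESeq2 and limma-voom called 0. With siC1QBP replicate 1 left out, 1 of the 4, HSP90AA1, was called lower (log2 fold change -0.08; edgeR adjusted p = 0.0440). HSP90AA1 had 2724 ± 166 CPM in siC1QBP and 2775 ± 73.9 in siNC (log2 fold change -0.03, 95% interval -0.11 to 0.06), and HSP90AB1 1303 ± 45.4 and 1344 ± 22.0 CPM (-0.04, -0.12 to 0.03).

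Among 11 nuclear partners and coregulators, 2 rose and 0 fell. ARNT, the DNA-binding partner of AHR and also of the hypoxia factors, had 48.6, 48.9 and 45.5 CPM in siC1QBP against 37.1, 38.7 and 38.1 CPM in siNC. All siC1QBP libraries were higher, and ARNT rose by a log2 fold change of 0.33 (SE 0.06; edgeR adjusted p = 0.00200). The coactivator NCOA3 rose from 87.2 ± 3.07 to 102 ± 5.58 CPM (0.23, SE 0.05; edgeR adjusted p = 0.00884), a call it lost when siNC replicate 2 was left out (edgeR adjusted p = 0.0690). The remaining 9, among them ARNT2, EP300 and CREBBP, were not called with edgeR. KLF6 was called higher without siC1QBP replicate 1, under scaling by library totals alone and with the replicate block (edgeR adjusted p of 0.0271 to 0.0338).

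Of the tested genes among other AHR-inducible genes of metabolism, 14.3% were called, the same share as over all tested genes. Of 11 listed genes 7 were tested, 1 rose and 0 fell; under scaling by library totals alone and with the replicate block 3 rose. The one that rose was XDH, xanthine dehydrogenase of purine breakdown, at 15.6, 17.4 and 14.1 CPM in siC1QBP against 10.3, 11.7 and 10.8 CPM in siNC (log2 fold change 0.52, SE 0.11; edgeR adjusted p = 0.00383). The quinone reductase NQO1 had 212 ± 3.52 against 197 ± 4.89 CPM (0.11, SE 0.04; edgeR adjusted p = 0.104). NQO1 was called higher under scaling by library totals alone (edgeR adjusted p = 0.0431) and with the replicate block (0.0482). The glutathione transferases GSTA1 and GSTA2 had 0 counts in all 6 libraries.

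Of 14 AHR-responsive genes of signalling and inflammation, 12 were tested, 4 rose and 0 fell. PTGS2, the inducible cyclooxygenase, had 120, 111 and 114 CPM in siC1QBP against 60.5, 64.3 and 61.5 CPM in siNC (log2 fold change 0.89, SE 0.05; edgeR adjusted p = 1.68e-08). EREG, which encodes the EGF receptor ligand epiregulin, rose from 374 ± 10.4 to 496 ± 25.5 CPM (0.41, SE 0.05; edgeR adjusted p = 2.55e-05). The cytokine gene IL1B rose from 103 ± 3.37 to 125 ± 5.79 CPM (0.28, SE 0.05; edgeR adjusted p = 0.00175). The fourth was the adaptor gene NEDD9 (0.18, SE 0.05; edgeR adjusted p = 0.0322), which lost its call with DESeq2 (adjusted p = 0.0529), with all genes of at least 1 count (edgeR adjusted p = 0.0558) and when any library but siC1QBP replicate 2 was left out (edgeR adjusted p of 0.0621 to 0.124). The cell cycle inhibitor gene CDKN1B was called lower with all genes of at least 1 count (edgeR adjusted p = 0.0456) and with the replicate block (0.0185). These genes answer to many other signals, and SERPINB2, IL6 and HES1 on the same list were not called.

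Genes of the kynurenine pathway and of the supply of tryptophan-derived ligands showed no call, and ligands were not measured. Of these 12 genes 8 were tested and 0 passed with edgeR, as under each of the 13 alternatives, DESeq2 and limma-voom included. An unadjusted p under 0.05 was found for 1 of them (edgeR). The enzymes that open the kynurenine pathway did not pass the low-count filter: IDO1 had 3 to 10 counts per library, TDO2 0 to 5 and IDO2 0. Kynureninase, KYNU, had 211 ± 7.01 CPM in siC1QBP and 196 ± 3.55 in siNC (log2 fold change 0.10, SE 0.04; edgeR adjusted p = 0.134), and the aminotransferase KYAT3 had 32.3 ± 1.59 and 31.4 ± 2.69 CPM (0.04, SE 0.08; edgeR adjusted p = 0.782).

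Further relatives of the receptor, the bHLH-PAS genes, were listed apart from AHRR, ARNT and NCOA3. Those 3 belong to the same family and were called higher, as given above. AHR itself, also of this family, was called lower. ARNT2, NCOA1 and NCOA2, family members on the list of nuclear partners, were not called. Their log2 fold changes were 0.14, 0.09 and 0.08 (edgeR adjusted p = 0.271, 0.513 and 0.506). Of the further relatives, 0 of 8 tested genes passed with edgeR, DESeq2 or limma-voom, and 2 had an unadjusted p under 0.05 (edgeR). HIF1A, the hypoxia factor that shares ARNT, had 513 ± 12.2 and 519 ± 19.8 CPM (log2 fold change -0.02, 95% interval -0.10 to 0.06; edgeR adjusted p = 0.822). The circadian factor ARNTL2 had 360 ± 24.4 and 325 ± 12.1 CPM (0.15, SE 0.05; edgeR adjusted p = 0.0562) and was called higher under 4 of the 13 alternatives (edgeR adjusted p of 0.00964 to 0.0445). Its relatives CLOCK and NPAS2 were each called under 1 alternative, CLOCK lower without siC1QBP replicate 1 (edgeR adjusted p = 0.0411) and NPAS2 higher with the replicate block (0.0452).

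Among relatives of TIPARP, 15 of 16 PARP family genes were tested, 1 rose and 2 fell. PARP10 had 46.1 ± 4.87 CPM in siC1QBP against 56.2 ± 2.46 in siNC (log2 fold change -0.29, SE 0.07; edgeR adjusted p = 0.0133). PARP12 had 53.4 ± 2.73 against 61.4 ± 4.43 CPM (-0.20, SE 0.06; edgeR adjusted p = 0.0457). Both are mono-ADP-ribosyltransferases known from interferon responses. PARP6 rose from 34.1 ± 0.0817 to 39.9 ± 2.54 CPM (0.23, SE 0.07; edgeR adjusted p = 0.0310). All 3 calls were lost when siNC replicate 2 or siNC replicate 3 was left out. PARP12 lost its call whichever of the 6 libraries was left out (edgeR adjusted p of 0.0504 to 0.167), with DESeq2 (adjusted p = 0.0518) and under scaling by library totals alone (edgeR adjusted p = 0.0917). PARP6 lost its call without any library but siC1QBP replicate 3 (edgeR adjusted p of 0.0509 to 0.105), with DESeq2 (adjusted p = 0.0786) and with all genes of at least 1 count (edgeR adjusted p = 0.0581). PARP1, the DNA damage sensor of the family, was called lower with DESeq2, without siC1QBP replicate 1 and with the replicate block (adjusted p of 0.0234 to 0.0453).

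Of 10 ALDH relatives of ALDH3A1, 7 were tested and 1 fell, the retinaldehyde dehydrogenase ALDH1A3. It had 913, 987 and 1010 CPM in siC1QBP against 1120, 1100 and 1110 CPM in siNC (log2 fold change -0.19, SE 0.04; edgeR adjusted p = 0.00508). ALDH1A3 makes retinoic acid, and at 691 TPM in siNC libraries it was far more abundant than ALDH3A1.

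Retinoid genes around LRAT moved in both directions: of 10 tested of 13, 1 rose and 2 fell. STRA6, a membrane receptor for retinol uptake, had 32.5, 34.3 and 31.6 CPM in siC1QBP against 19.2, 19.7 and 17.8 CPM in siNC (log2 fold change 0.79, SE 0.08; edgeR adjusted p = 6.08e-06). RDH10, which oxidises retinol to retinaldehyde, fell from 34.2 ± 1.44 to 25.4 ± 1.47 CPM (-0.43, SE 0.07; edgeR adjusted p = 0.000974). PNPLA4, a lipase that acts on retinyl esters, fell too (-0.39, SE 0.12; edgeR adjusted p = 0.0469), a call lost with DESeq2 (adjusted p = 0.0926), limma-voom (0.0529), scaling by library totals alone (0.0681), the filter of 1 CPM in 3 libraries (0.0511) and when any library but siNC replicate 1 was left out (edgeR adjusted p of 0.0615 to 0.217).

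**Figure D5:**
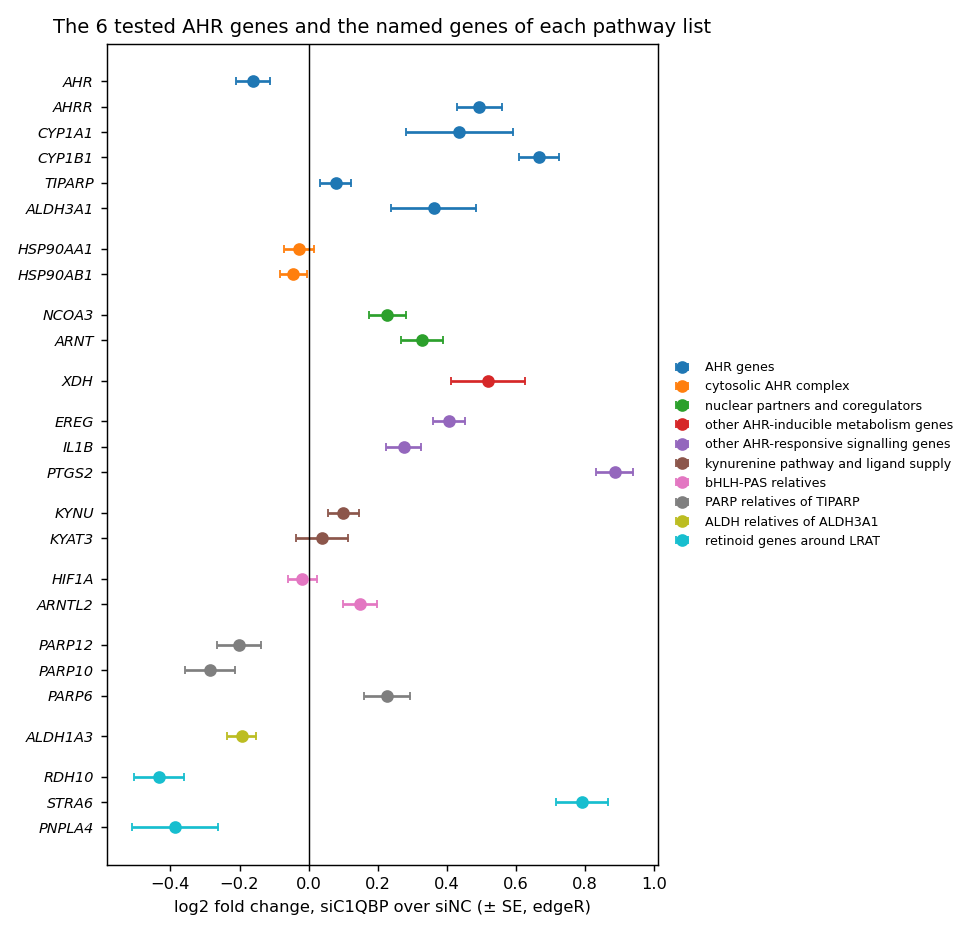
Log2 fold change (siC1QBP over siNC, points) with its SE (bars) of the 6 tested AHR genes and of the genes named from each pathway list, coloured by list. PTGS2 (0.89), STRA6 (0.79) and CYP1B1 (0.67) lie farthest to the right and RDH10 (-0.43) farthest to the left.

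Genes whose log2 CPM over the 6 libraries was most like that of each tested AHR gene were taken from protein-coding genes of at least 5 CPM. Pearson's r over 6 libraries of 2 groups is a description: a gene that differs between the groups in the same direction scores high, and all genes share the same libraries and scaling. For CYP1B1 the 3 most like were ECE1, the endothelin-converting enzyme (r = 0.998), the receptor phosphatase PTPRJ (0.997) and cystathionine gamma-lyase CTH (0.997). For AHRR they were OGFR (0.996), IRAK2, a kinase of interleukin-1 signalling (0.995), and ARHGEF3 (0.994). Their log2 fold changes ran from 0.34 for IRAK2 to 0.65 for OGFR, a direction that the choice by likeness fixes.

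For AHR the genes most like it were CENPE, a mitotic kinesin (r = 0.996), DNA2 (0.995) and SYNM (0.994). TIPARP was closest to KIAA1109 (0.995), OSBP (0.993) and ATF2 (0.993). CYP1A1 was closest to CPEB3 (0.993), FCGBP (0.985) and CSK (0.984), and ALDH3A1 to DFFA (0.990), NOXA1 (0.987) and DUSP1 (0.987). With the group means removed, r was 0.889 to 0.936 for the CYP1B1 genes and 0.980 to 0.998 for the AHR genes. For the AHRR genes it was 0.734 to 0.756. The genes were picked by r over the same 6 libraries, which partly fixes these values, so they are no separate check of the likeness.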

How the data were processed

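RNA sequencing of 6 HuCCT1 libraries, 3 siC1QBP and 3 siNC, was analysed. Per the labels' protocols, total RNA was column-purified and the NEBNext directional kit, which keeps the strand, was used. The values the authors deposited are raw counts, not normalized, for 58735 genes; every row has a gene name. The table's other numeric column used, gene length in bases, is per the file headers. The submitters' processing notes name hg38. Aligner, counting program and its use of strand: not given in the sources used here. All 58735 genes matched GENCODE release 29 by identifier and position.

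Counts were tested with edgeR 4.0.16 (R 4.3.3): quasi-likelihood test, TMM, filterByExpr, group as the only term, Benjamini-Hochberg adjustment over 15530 genes, called under 0.05. SE is the fold change over the square root of F; 95% intervals use the normal approximation. CPM use TMM-scaled totals; TPM use the file's lengths. The test was checked on simulated data. No 2 libraries looked like 1 deposited repeatedly (chi-square per degree of freedom 2.09 to 18.05, genes with at least 20 counts).

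The genes and lists were chosen with earlier results of these data known. Named genes are the 7 genes, C1QBP, up to 3 called genes with the smallest p per list (with no call, the 2 highest by TPM) and the 3 genes most like each tested one; other genes named were chosen after their values were seen. Some genes of the lists are not reported here and are left out of the list counts. Alternatives were DESeq2 1.42.0, limma-voom (limma 3.58.1), RLE size factors, scaling by library totals alone, all genes with at least 1 count, at least 1 CPM in 3 libraries, leaving out each library in turn, blocking on replicate number, an adjusted p under 0.01 and, added later, removal of the length trend.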

Additional observations from a re-analysis of the deposited data

How the results depend on the processing

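The count of all genes called, 2222, became 1057 at an adjusted p under 0.01 and ranged from 1090 (without siNC replicate 2) to 2607 (without siC1QBP replicate 1) with 1 library left out; 1193 were called without siNC replicate 3. Scaling by library totals alone gave 1253 higher and 908 lower genes, against 1005 and 1217. Of the AHR genes, 2 to 4 were called with 1 library left out, CYP1B1 and AHRR among them under each alternative that gives calls, which removal of the length trend does not. The replicate block called 3092 genes and 4 AHR genes, ALDH3A1 being added. Whether replicate numbers pair the samples could not be told from so few libraries. Deviations of same-numbered libraries from their group means correlated at 0.0433, 0.0330 and -0.00941. By these deviations siC1QBP replicates 1 and 2 were closest to the siNC library of the same number. The closest to siC1QBP replicate 3 was siNC replicate 2, at 0.0213. Of 84 recomputed log2 fold changes of the 6 tested AHR genes, 83 moved by less than the replicate SD, and AHRR moved from 0.49 to 0.44 without the length trend. Of 546 values of 42 other named genes, 61 lost and 5 gained a call, and no called value changed sign. The 42 do not include all other genes mentioned. KLF6, NQO1, CDKN1B, CLOCK, NPAS2 and PARP1, whose calls under alternatives are given above, are left out. So are the genes that overlap the AHR genes. Depth limits LRAT, CYP1A1 and ALDH3A1 most.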
